A study of Mus musculus with 14 samples.

Results

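Cytosolic ribosomal protein genes were examined in the brains of male mouse fetuses at embryonic days E13.5 and E18.5. They were chosen as protein_coding rows whose symbol is that of a large subunit (Rpl, Rplp) or small subunit (Rps, Rpsa) protein and whose mean normalized count, over the libraries of an age, was at least 100. Of 83 symbols that matched, 79 passed at E13.5 and 78 at E18.5. The 78 genes that passed at both ages, 47 of the large and 31 of the small subunit, are described here, out of 41934 rows in each table and 11955 rows that reached 100 at both ages.

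The study sequenced ribosomal RNA-depleted total RNA from whole brains of individual C57BL/6J fetuses, littermates from matings of Dio3+/- mice. Dio3 encodes the type 3 deiodinase, the selenoenzyme that clears thyroid hormones, and Dio3-/- fetuses carry an inactivating mutation in every cell of the body that leaves the Dio3 mRNA in place. There were 4 Dio3+/+ and 2 Dio3-/- brains at E13.5, and 3 Dio3+/+ and 5 Dio3-/- brains at E18.5, 14 in all, sequenced in 2 batches. The value used here is 1 mean per gene and age, taken by the authors over both genotypes, so it has no replicate error and the genotypes were not compared.

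A ribosome is a small subunit that reads the mRNA and a large subunit that joins the amino acids. Each subunit holds ribosomal RNA and a set of proteins of which it needs a single copy each, apart from the stalk proteins Rplp1 and Rplp2. The genes of these proteins lie scattered over the genome and are among the most actively transcribed in any cell. Many of their mRNAs begin with a C followed by a run of pyrimidines, the terminal oligopyrimidine tract, through which mTOR signalling and Larp1 control their translation. Dividing neural progenitors of the fetal brain are known for high ribosome production.

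The start sequences were searched for this feature. A promoter of 250 bases before and 50 bases from the annotated start was present in the RefSeq table (GRCm38.p6) for 58 of the 78 genes. A C followed by at least 4 pyrimidines, read on the gene's strand and beginning within 2 bases of that start, was found in 20 of the 58 (34.5%), against 10.6% of the 27025 genes in the table. These were 13 of 35 large subunit and 7 of 23 small subunit genes. The 30 bases around the start are shown for the 4 genes of each subunit with the highest level per kilobase among those that carry the run, with the pyrimidine run in capitals.
Rps27, chr3:90213631-90213660, minus strand: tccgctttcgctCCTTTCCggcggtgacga
Rps21, chr2:180257367-180257396, plus strand: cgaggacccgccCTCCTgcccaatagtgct
Rps15a, chr7:118116130-118116159, minus strand: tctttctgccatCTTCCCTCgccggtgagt
Rps18, chr17:33955648-33955677, minus strand: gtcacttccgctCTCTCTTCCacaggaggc
Rpl7a, chr2:26910795-26910824, plus strand: ccctcttctttCTTTCTCCagcagccgagc
Rpl28, chr7:4792953-4792982, plus strand: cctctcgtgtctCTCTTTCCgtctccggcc
Rpl14, chr9:120571505-120571534, plus strand: cgggccctctctCTTCTCgctgagcgccgc
Rpl15, chr14:18270969-18270998, minus strand: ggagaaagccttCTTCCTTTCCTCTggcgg
Counted from its first capital C, the run was 5 to 13 bases long in these 8 windows. In several of them more pyrimidines stand directly before that C and are not marked. A gene without a match has no such run in this narrow window, and no more is read from it. Among the 58 genes, the median mean normalized count per kilobase at E13.5 was 4000 with the run and 4249 without it.

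Other letters in these promoters were counted on both strands of the 300 bases. CGGAAG, the core bound by ETS family factors, was in 39 of the 58 genes (67.2%) and in 18.8% of all genes in the table. AAGATGG, the core of the YY1 motif, was in 10 of the 58 (17.2%), against 7.28% of all genes. TATAAA was in 7 of the 58 (12.1%), against 15.7% of all genes. The median share of G and C was 57.5% in the promoters of the 58 genes and 52.8% over all genes. CGGAAG and AAGATGG were chosen after the sequences were seen, and none of these matches was tested as a binding site.

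Together the ribosomal protein genes took 1.11% of the summed mean counts at E13.5 and 0.880% at E18.5. The large subunit genes held 0.645% and the small subunit genes 0.465% at E13.5, and 0.526% and 0.353% at E18.5. The counts were spread over many members, since the 10 with the highest means held 28.4% of the members' counts at E13.5 and 28.9% at E18.5. The member with the most counts was Rpl4 (ENSMUSG00000032399.8, GRCm38 chromosome 9, 64173375 to 64178666), a large subunit protein that lines the exit tunnel, with a mean of 14223 at E13.5 and 10755 at E18.5.

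To set genes of different length side by side, each mean was divided by the length of the gene's transcript in kilobases. Among the 78 genes the median of this level was 4348 at E13.5 and 2792 at E18.5. It ranged from 558 to 12960 at E13.5, a 23.2-fold spread, and from 298.5 to 11376 at E18.5, a 38.1-fold spread. Within 2-fold of the median lay 52 genes at E13.5 and 48 at E18.5. The order of the genes was nearly the same at both ages (Spearman's rho 0.98 across the 78 genes, which share libraries and lengths, against 0.89 across 11547 protein_coding rows).

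In the small subunit Rps27, Rps29, Rps12 and Rps15 were among the 5 highest genes per kilobase at E13.5. Rps27 (ENSMUSG00000090733.6, chromosome 3), a zinc finger protein, stood at 12960 at E13.5 and 9475 at E18.5. Rps29, another zinc-binding protein, stood at 12680 and 11376, the highest level of the 78 genes at E18.5. Rps12 had 11323 and 7639, and Rps15, close to the decoding centre, had 10421 and 7372. Of these 4 genes Rps29 differed least between the ages.

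In the large subunit the 5 highest were Rpl41, Rplp1, Rpl32, Rpl8 and Rpl4. Rpl41, the smallest protein of the ribosome, stood at 11282 at E13.5 and 7379 at E18.5. Rplp1, of the stalk that recruits elongation factors, had 10922 and 8729. Rpl32 had 10471 and 7520, Rpl8, near the peptidyl transferase centre, had 10199 and 6243, and Rpl4 had 9248 and 6993. Per kilobase of transcript the stalk proteins were not level with each other. Rplp0, the base of the stalk, was at 9133 and 5715, while Rplp2, the partner of Rplp1, was at 3640 and 2259. Rplp2 has an annotated transcript of 964 bases for 345 coding bases. Per kilobase of coding sequence at E13.5 it stood nearer the others, at 10171 beside 15937 for Rplp1 and 13041 for Rplp0. Rpsa, a small subunit protein also described as a laminin receptor, was at 2839 and 1806 per kilobase of transcript. Per kilobase of coding sequence it was at 6218 at E13.5.

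**Figure D1:**
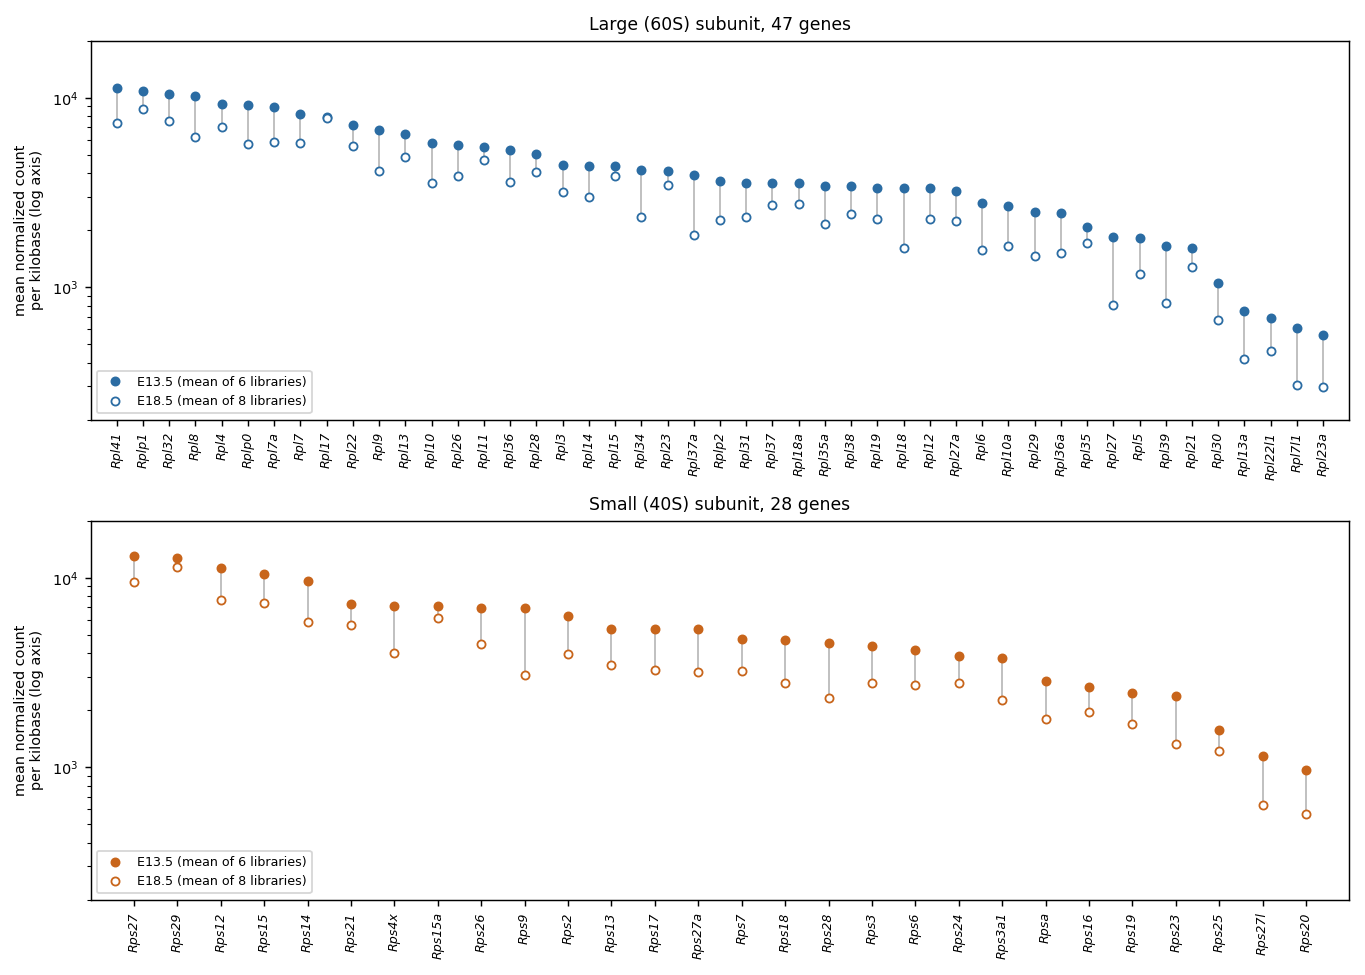
Mean normalized count per kilobase of transcript (log axis) of 47 large subunit genes (upper panel) and 28 of the 31 small subunit genes (lower panel), in the order of their E13.5 levels. Filled points are the authors' means over 6 libraries at E13.5 and open points those over 8 libraries at E18.5. The means are as deposited and not scaled to each other. Of all 78 genes, 52 lay within 2-fold of the median at E13.5 and 48 at E18.5. Genes at the right end of each panel, such as Rpl23a at 558 and Rps20 at 966 at E13.5, lie well under the median.

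Several of the lowest members are like genes or have unusual transcript models. In the large subunit the 5 lowest at E13.5 were Rpl23a (558), Rpl7l1 (609), Rpl22l1 (684), Rpl13a (753) and Rpl30 (1051). In the small subunit they were Rps20 (966), Rps27l (1151), Rps25 (1575), Rps23 (2388) and Rps19 (2476). Of these 10 genes, 3 are like genes, named after another ribosomal protein. Rps20 has an annotated transcript of 3706 bases for a coding sequence of 357 bases, and per kilobase of coding sequence it stood at 10033, above the median of 7342 over the 78 genes. Rps25 likewise has 1280 transcript bases for 375 coding bases, with 5376 per coding kilobase. The 2 ways of dividing by length ordered the genes alike only in part (Spearman's rho 0.81 at E13.5).

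Several low members lie on exons of another gene. The counting used by the authors, without strand and in union mode, gives a read that touches exons of 2 genes to neither of them. Of the 78 genes, 7 had at least 25% of their transcript inside exons of another gene, 6 of the large and 1 of the small subunit. They were Rpl35 (68.3%), Rpl13a (59.3%), Rpl23a (55.4%), Rps25 (52.2%), Rpl5 (46.6%), Rpl30 (34.7%) and Rpl22l1 (28.8%). Their median level was 1051 per kilobase at E13.5 and 671 at E18.5, against 4717 and 3165 in the 65 genes with no such overlap. At each age 5 of the 10 lowest members were among these 7. The lowest gene without overlap, Rpl7l1, was at 609 and 306, so a low level also occurred without it. Its annotated transcript has 2606 bases for 738 coding bases. Per coding kilobase Rpl7l1 stood at 2149 at E13.5, under the median of 7342 over the 78 genes.

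At least 25% of the coding sequence was overlapped in 4 genes. Rpl13a had 97.5% of its coding bases in exons of the same-strand gene Gm45713, which was listed at 0 at both ages, and stood at 1295 per coding kilobase at E13.5. Rpl23a had 55.3% of its coding bases in such exons, and its partner Tlcd1 on the other strand had a mean of 123 at E13.5 and 213 at E18.5. Rpl22l1 had 33.9% and Rpl35 28.5%. The median of the 4 was 1163 per coding kilobase at E13.5 and 706 at E18.5, and that of the 71 genes with no coding base in another gene's exon was 7928 and 4984. Rpl35 stood well above the median of the 4, at 5349 and 4363. At each age 3 of the 10 lowest members per coding kilobase were among these 4. Rpl5 and Rps25 had their overlap outside the coding sequence and stood at 4169 and 5376 per coding kilobase.

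Genes with such overlap also lay near the threshold of 100. Rps10, a small subunit protein, has 89.9% of its coding bases in exons of a same-strand read-through gene that joins it to Nudt3, listed at 0 at both ages. Its mean was 101.8 at E13.5, just inside the threshold, and 42.4 at E18.5, outside it. Rpl24, of the large subunit, has 83.4% of its coding bases in exons of Gm28037, also listed at 0, and its means were 30.9 and 15.1, outside at both ages. The members just above the threshold were Rpl23a, with means of 313 and 167, and Rpl22l1, with 378 and 255. How many reads on shared exons went uncounted in these genes was not tested, so their means are not read here as mRNA levels.

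**Figure D2:**
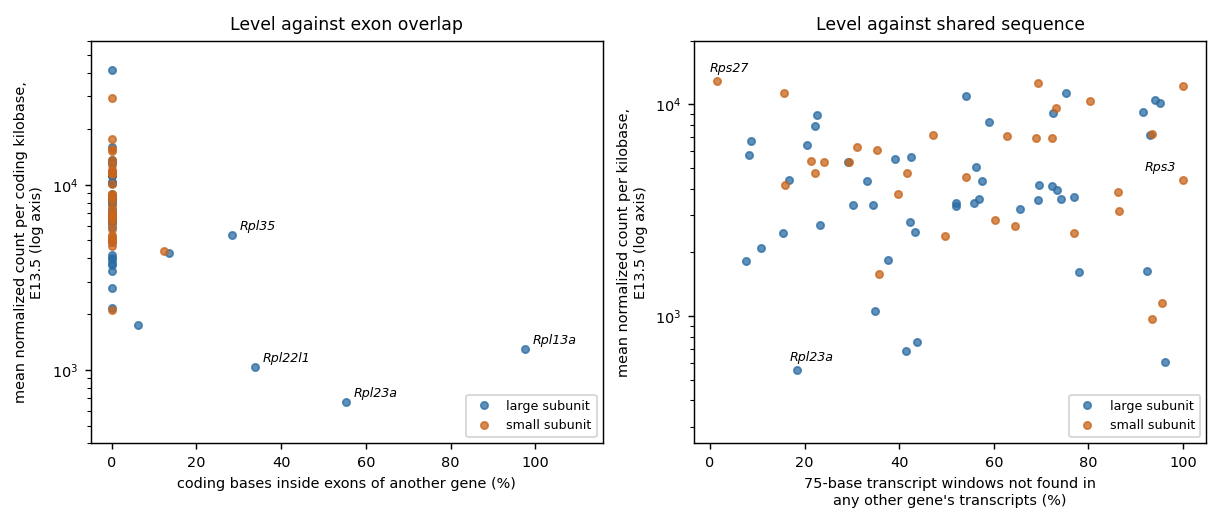
Left, mean normalized count per coding kilobase at E13.5 (log axis) against the percent of coding bases inside exons of another gene, for the 78 genes. Right, mean normalized count per transcript kilobase at E13.5 (log axis) against the percent of 75-base transcript windows found in no transcript of another gene. The 4 named genes at 28.5% or more in the left panel have a median of 1163, with Rpl35 well above it at 5349. The right panel shows no trend, with Rps27 high at 1.48% and Rps3 near the median level at 100%.

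Ribosomal protein genes have left many processed pseudogenes in the mouse genome, and reads that match a gene and its copy equally well are not counted by HTSeq. Of the 75-base windows of each member's transcript, the length of the reads, a median of 53.1% were in no transcript of another gene. Rps3 had no shared window, while Rps27 had 1.48% unshared and Rpl5 7.51%. A window in exons of an overlapping gene at the same place also counts as shared. Of the 1823 shared windows of Rpl5, 879 were shared with the overlapping gene Fam69a. The unshared share thus mixes copies elsewhere with the exon overlap described above. At least 1 pseudogene shared a window with 74 of the 78 genes, and the median number was 5, with 64 for Rpl7a, 60 for Rpl21, 49 for Rps2 and 42 for Rpl29. The level per kilobase did not go with the unshared share (Spearman's rho 0.05 at E13.5 and 0.03 at E18.5 across the 78 genes).

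Rps27 shows how close such copies are. Rps27rt, a gene without introns on chromosome 9, has the same 252 coding bases as Rps27, yet its mean was 3.29 at E13.5 and 3.40 at E18.5, against 4471 and 3269 for Rps27. Rps27l, which is known as a p53 target, matched Rps27 at 189 of 251 aligned coding bases (75.3%). The first 60 coding bases of the 3 genes (GENCODE M21 transcripts) are shown, with capitals where Rps27 and Rps27l differ and none in Rps27rt, which differs from Rps27 nowhere.
Rps27: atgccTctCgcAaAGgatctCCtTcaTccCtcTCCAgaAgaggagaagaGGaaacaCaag
Rps27l: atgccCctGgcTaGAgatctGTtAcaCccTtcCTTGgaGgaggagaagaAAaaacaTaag
Rps27rt: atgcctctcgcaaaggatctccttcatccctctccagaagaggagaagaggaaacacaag
Rps27 and Rps27l differ at 18 of these 60 bases. Rps27l has 95.6% unshared windows and Rps27 1.48%, and how many reads of Rps27 went uncounted was not tested.

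The like genes were low beside the genes they are named after. Per kilobase, Rps27l stood at 8.88% of Rps27 at E13.5 and at 6.69% at E18.5, with means of 662 and 365, ratios that rest on the count of Rps27 with its few unshared windows. Rpl22l1 stood at 9.51% and 8.30% of Rpl22, whose coding sequence it matches at 70.2% of aligned bases, though it is one of the overlapped genes above. Rpl7l1 stood at 7.40% and 5.32% of Rpl7, with means of 1586 and 797 and 60.3% of aligned coding bases in common. Its share depends on the length used, since Rpl7l1 has 2606 transcript bases for 738 coding bases. Per coding kilobase at E13.5 it stood at 2149, against 11813 for Rpl7. A stretch of 60 aligned coding bases of Rpl22 and Rpl22l1 is shown, from coding base 175 of Rpl22 and 157 of Rpl22l1, with differences in capitals.
Rpl22: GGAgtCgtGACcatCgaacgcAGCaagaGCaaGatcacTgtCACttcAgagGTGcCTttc
Rpl22l1: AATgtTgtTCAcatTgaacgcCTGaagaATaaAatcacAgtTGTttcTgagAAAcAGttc
Those 2 differ at 24 of the 60 bases. The other like genes, whose known sites of expression are outside the brain, were under the threshold. Rpl3l, the striated muscle form of Rpl3, had means of 2.88 at E13.5 and 2.34 at E18.5. Rpl39l, known from the male germ line, had 1.46 and 0.997, and Rpl10l, also of the male germ line, was listed at 0 at both ages.

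The small subunit had the higher median level per kilobase at both ages. The size of this difference, and at E18.5 its sign, depended on how length was treated and on the threshold. The median level per kilobase was 3640 for the large and 5356 for the small subunit at E13.5, or 1.47-fold higher in the small subunit. At E18.5 it was 2432 against 3165. On the log2 scale, large minus small was -0.56 at E13.5 and -0.38 at E18.5. The subunits overlapped widely, with the middle 50% of genes between 2590 and 6075 in the large and between 3469 and 7103 in the small subunit at E13.5. At E18.5 the sign turned to 0.04 with the length of all exons joined, and to 0.03 among members with a mean of at least 1000. Genes are not replicates, so no test was made of it.

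Levels were next compared between ages, after scaling each table to a sum of 1000000 over its rows. The tables were normalized separately by the authors and differ in the share of Dio3-/- brains, so age, genotype and batch mix cannot be told apart and the ratio has no test. Of the 78 genes 74 were lower at E18.5, against 56.5% of the 11955 rows with a mean of at least 100 at both ages. The median log2 ratio of E18.5 to E13.5 was -0.40, a level of 0.760 times, and the median over all rows was -0.09. At least 1.5-fold lower were 15 genes (19.2%), against 15.4% of all rows, so this share was near the background. At least 1.5-fold higher were 0 genes, against 16.7% of all rows. The ratios of the members lay closer together than those of all rows, with the middle 50% between -0.52 and -0.25, a width of 0.27 against 0.74. This width was not computed for the other protein synthesis genes described below, so it is not read as particular to ribosomal protein genes.

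The median ratio was -0.35 in the large and -0.43 in the small subunit, a difference of 0.08. At least 1.5-fold lower were 9 of 47 large (19.1%) and 6 of 31 small subunit genes (19.4%), both near the 15.4% of all rows. Rpl27, Rps9, Rpl37a and Rpl18 were among the 5 genes with the lowest ratios. Rpl27 (ENSMUSG00000063316.13, chromosome 11), a large subunit protein, had means of 1124 at E13.5 and 494 at E18.5, a log2 ratio of -0.97. Rps9, among the first proteins to join the small subunit, had 5200 and 2317 (-0.95). Rpl37a, which binds zinc, had 2188 and 1048 (-0.84), and Rpl18 had 2273 and 1093 (-0.84). None of these 4 reached a 2-fold difference after scaling.

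At the other end, 4 genes had ratios above 0. Rpl17, which lines the exit tunnel, had means of 6158 and 6085 (0.20), Rps29 had 4945 and 4436 (0.06), Rpl15 had 3831 and 3432 (0.06), and Rps15a had 4523 and 3947 (0.02). Their deposited means were all lower at E18.5, and the scaling put them above 0. The next was Rpl11, which with Rpl5 binds Mdm2, at 4592 and 3899 (-0.02). Among the stalk proteins the ratios were -0.46 for Rplp0, -0.10 for Rplp1 and -0.47 for Rplp2, and Rpsa was at -0.43. Each of the 3 like genes had a lower ratio than the gene it is named after. These were -0.64 for Rps27l and -0.23 for Rps27, -0.35 for Rpl22l1 and -0.15 for Rpl22, and -0.78 for Rpl7l1 and -0.30 for Rpl7.

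The age ratio was also set against these features of the genes. It was -0.41 at the median in the 7 genes with at least 25% of the transcript in another gene's exons and -0.40 in the other 71. It was -0.33 in the 41 genes with at least 50% unshared windows and -0.43 in the 37 others. With the start run it was -0.32 in 20 genes and without it -0.41 in 38.

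The levels of cell type markers also differed between the ages. All 4 neural progenitor markers (Sox2, Nes, Pax6, Vim) were lower at E18.5, their summed scaled level going from 1455 at E13.5 to 478 at E18.5, and 3 of 4 neuronal markers (Map2, Stmn2, Snap25) were higher, the sum of the 4 with Tubb3 going from 3997 to 5186. All 3 astrocyte markers (Aldh1l1, Gfap, Aqp4) were higher, from 24.3 to 162. The 3 red cell markers went from 191 to 114 and the 2 cartilage markers (Col2a1, Acan) from 205 to 19.9. The 3 muscle markers, with low sums, went from 8.79 to 1.59, and the 2 liver markers from 8.98 to 3.49. The part of these changes in the ratio of the ribosomal protein genes was not tested. In whole tissue, fewer cells of a type and less RNA per cell cannot be told apart.

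**Figure D3:**
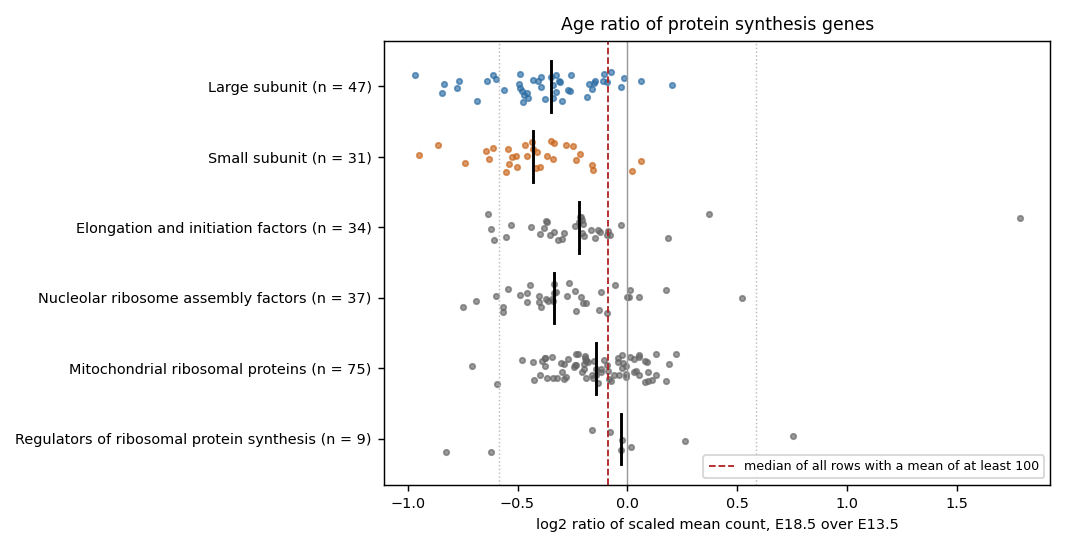
Log2 ratio of the scaled mean count at E18.5 to that at E13.5 for ribosomal protein genes by subunit and for 4 other lists of protein synthesis genes. Each point is a gene with a mean of at least 100 at both ages, and black bars are medians. The dashed line is the median of all such rows (-0.09) and dotted lines mark 1.5-fold. The median of nucleolar assembly factors (-0.33) lies close to that of the large subunit (-0.35), with the small subunit at -0.43. Further right lie the medians of elongation and initiation factors (-0.22), mitochondrial ribosomal proteins (-0.14) and regulators (-0.03).

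Other genes of protein synthesis were set beside them from lists. Of 34 elongation and initiation factors, 31 were lower at E18.5, with a median log2 ratio of -0.22, 3 at least 1.5-fold lower and 1 at least 1.5-fold higher, where all rows gave 56.5% lower, 15.4% at least 1.5-fold lower and 16.7% at least 1.5-fold higher. Eef1a1, which brings aminoacyl-tRNA to the ribosome, had means of 82781 and 61629 (-0.21), and Eef2, which drives translocation, 66930 and 52712 (-0.13). Eef1a2, the form that replaces Eef1a1 in mature neurons and muscle, was the exception, with means of 1833 and 5436 (1.79). Eif4a2, a helicase of initiation, was also above 0, at 7276 and 8086 (0.37).

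Of 37 nucleolar assembly factors found of 39 listed, 32 were lower, with a median of -0.33 and 3 at least 1.5-fold lower, beside the same 56.5% and 15.4% of all rows. Ncl had means of 12019 and 8199 (-0.33), and Npm1 9127 and 5384 (-0.54), both abundant proteins of the nucleolus. Rrn3, which recruits RNA polymerase I to the ribosomal RNA genes, had 4915 and 2617 (-0.69). Mitochondrial ribosomal proteins, which make the separate ribosome of that organelle, were lower in 57 of 75 genes, with a median of -0.14 and 2 at least 1.5-fold lower, again beside 56.5% and 15.4% of all rows. Of 9 regulators, 6 were lower, 2 at least 1.5-fold lower and 1 at least 1.5-fold higher, beside 56.5%, 15.4% and 16.7% of all rows. Their median of -0.03 became 0.06 when the tables were scaled to a median ratio of 1. Among these regulators Eif4ebp2 had 8655 and 4192 (-0.83) and Mycl 4665 and 2610 (-0.62). Larp1 had 5630 and 4898 (0.02), Mtor 4637 and 3561 (-0.16), and Myc, a transcription factor that promotes ribosome production, 697 and 1009 (0.75).

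Among ribosomal proteins whose symbols the rule did not cover, the 3 given here were also lower at E18.5. Rack1, a scaffold on the small subunit, had means of 15227 and 10565 (-0.31). Fau, which encodes a small subunit protein fused to a ubiquitin-like protein, had 2460 and 1409 (-0.59). Rpl36al had 37.8 and 18.9.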

How the data were processed

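RNA was sequenced from 14 whole fetal brains in 2 batches with single-end reads. Per the methods and the submitters' processing notes, the authors trimmed reads with cutadapt 3.1, aligned them with STAR 2.5.3a to GRCm38 with the GENCODE VM22 annotation, removed rRNA and tRNA with bedtools 2.26.0, used HTSeq (union mode, strand ignored) for the counts, removed the batch effect by ComBat-seq and ran DESeq2 1.30.1 in R 4.0.3. The deposited signal used here is the mean normalized count per gene, 1 value per age over all its libraries and both genotypes. The tables' other columns hold the authors' comparison of Dio3-/- with Dio3+/+ (log2 fold change, its standard error, statistic, p and adjusted p) and were not used. No column of a single library was in the tables, so no replicate error, no test and no check of Dio3 or of depth by sample was possible; the summed means were 28582629 at E13.5 and 24565726 at E18.5, and 1 gene, Gm26917, took 4.62% and 2.22% of them.

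Transcript and coding lengths, overlaps and windows came from GENCODE M21 (GRCm38; 41897 of 41934 rows matched by identifier), using the complete transcript with the longest coding sequence. Python 3.11.15, pandas 2.3.3, numpy 2.4.6, scipy 1.17.1 and biopython 1.88 were used, and the scripts were tested on simulated data. Promoters are from RefSeq, matched by symbol. Named genes were the 5 highest and 5 lowest per kilobase in each subunit at E13.5, the 5 highest and 5 lowest age ratios, like genes and the genes they are named after, Rplp0, Rplp1, Rplp2 and Rpsa, and the genes nearest the threshold of 100. Other members were named for overlap, shared windows or start sequence after their values were seen. Members and lists were chosen with earlier results of these data known. The share of lysine and arginine was not computed. Some genes that this rule names are not reported here.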

Additional observations from a re-analysis of the deposited data

How the results depend on the processing

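Of 49 values under alternatives, 29 stayed close to the main value, 18 moved and 2 changed sign. The large minus small difference in log2 level per kilobase (-0.56 at E13.5, -0.38 at E18.5) became -0.306 and 0.0284 with a mean of at least 1000, -0.487 and 0.0376 with the length of all exons joined, -0.350 and -0.0025 with no division by length, and -0.451 and -0.228 without like genes. With choices made after seeing the data it was -0.170 and -0.0353 among genes with at least 50% unshared windows, and -0.326 and -0.377 per unshared length. Also by such choices, it was -0.293 and -0.0993 per coding length, and -0.366 and -0.0976 without overlapped genes. The causes were not tested. The share of counts at E13.5 was 1.20% of protein_coding rows. The median age ratio of -0.40 was -0.61 with no scaling, -0.43 scaled to protein_coding rows and -0.31 scaled to a median ratio of 1; members below 0 numbered 78, 75 and 71, and the median over all rows was -0.31, -0.13 and 0. The 15 genes at least 1.5-fold lower became 42 with no scaling and 9 scaled to a median ratio of 1, 0 at a 2-fold limit and 51 where E13.5 had to exceed E18.5 by 25%. None was higher past the fold under any of these scalings and limits. The share of all rows past the fold was computed only for the main setting, so the other counts have no background beside them.

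No paired analysis was possible because the tables hold no column of a single library, and for the same reason no fit without a library was run. Windows unique in the genome were not run, since no genome was used, and pseudogene rows were not added, since the tables hold 0 rows of pseudogene types other than polymorphic. Depth per library was not known here, so the error of each mean is unknown.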

Other observations

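Small nucleolar RNAs, which guide the chemical modification of ribosomal RNA, are often made from introns of ribosomal protein genes. In the GENCODE M21 annotation 30 of the 78 genes held at least 1 snoRNA gene on their own strand, 20 of 47 in the large and 10 of 31 in the small subunit, with 58 snoRNA genes in all. Rpl4 held 5 and Rpl13a held 4. The median level per kilobase was 3598 at E13.5 and 2518 at E18.5 in these host genes, and 4741 and 3125 in the 48 others. The median log2 age ratio was -0.41 in the hosts and -0.38 in the others. The 78 genes lay on 19 chromosomes, with 14 on chromosome 7, 4 on the X chromosome and 0 on the Y chromosome.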
